A study of Homo sapiens with 11 samples.

Results

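ZFP36L2 was mapped on RNA by eCLIP in MOLM13 and in THP1, and the comparison described here sets the enrichment of the MOLM13 immunoprecipitates over IgG against that of the THP1 immunoprecipitates, region by region. A region entered when each of the 4 lists of immunoprecipitate against IgG held a cluster that shared at least 1 base with it on the same strand. This left 44174 regions. Counted another way, merging all overlapping clusters gave 341003 regions found in any list, of which 43422 held clusters of all 4 lists. The 44174 regions took up 31.5% and 24.2% of the clusters in the MOLM13 lists and 28.8% and 30.7% of those in the THP1 lists. The choice used presence of a cluster in all lists and not the size of the fold, but a site with clusters in 1 line alone is left out by it, and 217817 of the regions of overlapping clusters occurred in 1 list only.

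MOLM13 and THP1 are established human acute myeloid leukaemia lines, and the labels give no treatment and no genetic change for either. Each line had 2 ZFP36L2 immunoprecipitates, each with an IgG library of its own, so the 4 lists rest on 8 of the 11 libraries in the series. All libraries came from cells crosslinked at 254 nm, and RNA running with protein of 30 to 105 kDa was recovered. Nothing in the labels says that the duplicates of a line were separate cultures, so each p-value measures the spread between these libraries, which may be technical, and each line stands for itself alone.

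ZFP36L2 belongs to the TIS11 family of CCCH zinc finger proteins with ZFP36 and ZFP36L1. These proteins bind AU-rich elements, whose core is the pentamer AUUUA, mostly in 3' UTRs, and bring deadenylation and decay factors to the mRNA. Short-lived mRNAs of cytokines, growth factors and cell cycle regulators are known targets. A cluster in an intron lies on unspliced RNA, and a cluster at a gene's 5' end lies on the first bases of the transcript.

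The sequences below are examples, from inside annotated promoter windows, of regions with a high fold in all lists and of regions at gene 5' ends, shown for the presence or absence of the AU-rich core. Each is given in RNA sense as DNA letters, 5' to 3', with every ATTTA in capitals, and each covers up to 30 bases of its region (RefSeq sequence, GRCh38.p14). The first 7 had a centred log2 fold of at least 2 in all 4 lists, and POGLUT3 and MCOLN1 are the ones of this kind without the pentamer in the whole region.
PRC1, chr15:90966195-90966224, minus strand: ATTTAttcttccgctgtctgcctgcagcag
EIF1B, chr3:40309822-40309851, plus strand: cccagggcgaagcgttttcttATTTAtttc
HIST1H2BG, chr6:26216660-26216689, minus strand: tATTTAagtgcgttcattctcactgctgtt
TTBK2, chr15:42739080-42739109, minus strand: aaaagtgtaattATTTATTTAattttccca
PARVB, chr22:44172900-44172929, plus strand: cagtatgctgttATTTAttccaataaagac
POGLUT3, chr11:108478305-108478334, minus strand: gggctgcatgtgggttgttgcactgtgggg
MCOLN1, chr19:7533928-7533957, plus strand: gtgtcggacccttgggggcggggagactgg
The next 3 overlap the first 50 bases of a gene and had a low fold in both THP1 lists.
UNC50, chr2:98608625-98608654, plus strand: cgttgagggaagggaagcccgcccggtggc
ZNF740, chr12:53180738-53180767, plus strand: cccggtgggggcagccgcggcggtggggtt
MORF4L1, chr15:78872889-78872918, plus strand: caaatccggcccaggatgtagagctggcag

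The TTBK2 stretch holds 2 overlapping copies of the pentamer and lies in a 3' UTR, as does the PARVB stretch. The EIF1B and HIST1H2BG stretches lie in 5' UTRs. Of the 252 shared regions inside a promoter window, 9 had a centred log2 fold of at least 2 in all lists, and 7 of these 9 held ATTTA on the transcribed strand. It was present in 7 of the other 243, and in 0 of the 132 regions that lay below 0 in all 4 lists. For comparison, the central 50 bases of all 35116 promoter windows held ATTTA on the gene's strand in 3.47% and on either strand in 6.48%. Several of the 9 regions lay in the window of another gene, as TTBK2 in that of TTBK2-AS1 and PARVB in that of PARVG. The window shares are thus a rough background and not a matched one. The 9 regions were also longer and richer in A and T than the rest, with a median of 67 bases against 35 and of 55.3% A and T against 31.2%. These matches are a description of letters in a window and not of binding sites, and promoter windows hold few of the regions.

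Throughout, a value is the authors' log2 fold of immunoprecipitate over IgG minus the median of that list, called the centred fold. The medians removed were 0.28 and −0.60 in the MOLM13 lists and 0.0019 and 0.38 in the THP1 lists. A difference is the mean centred fold of MOLM13 minus that of THP1. Differences were tested with limma, and a region was called when its Benjamini-Hochberg adjusted p over all 44174 regions was under 0.05. limma draws each region's variance toward a value pooled over all regions, here an SD of 0.738 weighted as 17.9 degrees of freedom. Each SE and p-value therefore reflects that pooled spread more than the spread of the region's own duplicates. The fold compares each immunoprecipitate with IgG of the same line, so binding per RNA and the amount of the RNA cannot be told apart, and the levels of the RNAs were not analysed here. In a bulk extract, fewer cells that make an RNA and less RNA per cell cannot be told apart either.

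The regions held the same broad order in both lines. Across the 44174 regions, the centred folds correlated with Pearson's r of 0.722 between the MOLM13 lists, 0.821 between the THP1 lists, and 0.634 to 0.673 between lists of different lines. These correlations describe regions that share libraries and are not tests. The SD of the difference between duplicates was 1.09 in MOLM13 and 1.03 in THP1, against 1.28 to 1.41 between single lists of different lines. The median difference between the lines was 0.020 with an SD of 1.12.

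Of the 44174 regions, 100 were called higher in MOLM13, which is 0.226% of all regions, and 219 were called lower in MOLM13 than in THP1, which is 0.496%. Together they made up 0.722%, and in each of them both values of one line lay above both values of the other. Such separation by itself was common, with MOLM13 above THP1 in 23.1% of regions and THP1 above MOLM13 in 22.6%. The smallest difference called was 3.07 upward and 3.01 downward, so under this scaling and threshold no smaller difference was called. The split of the calls depended on the scaling. Without centring, all differences shifted by −0.35 and limma called 35 regions higher in MOLM13 and 314 higher in THP1. Quantile normalization gave 38 and 90, and centring on the shared regions gave 261 and 319. With any 1 of the 4 immunoprecipitates left out, 1 line rests on 1 library, and the calls did not hold at the adjusted threshold. All 319 called regions kept their sign, but the separation of the lines at every call fixed this in advance.

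**Figure D1:**
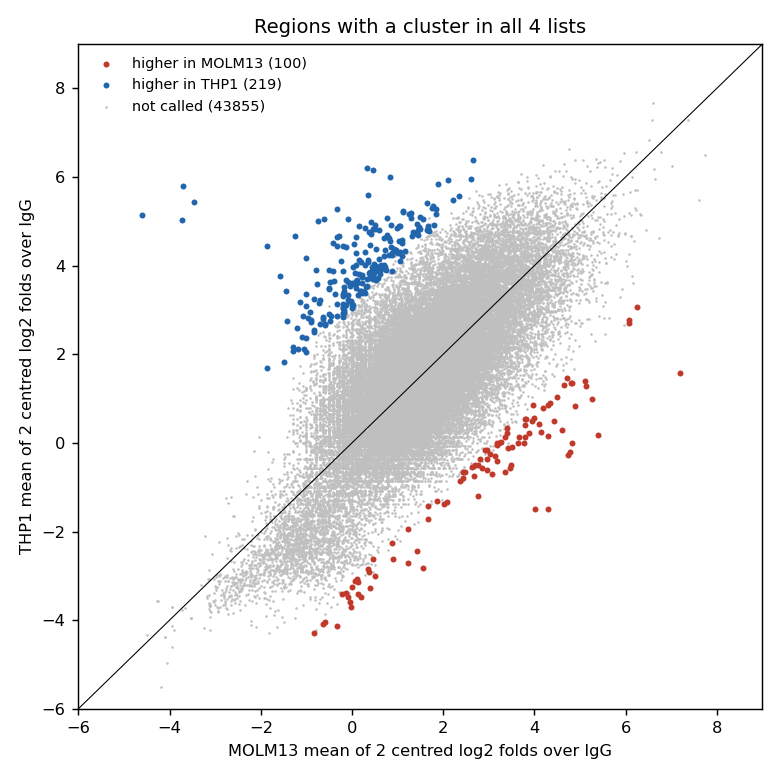
Mean centred log2 fold over IgG in MOLM13 (horizontal axis) and in THP1 (vertical axis) for the 44174 regions, 1 point each, with the line of equality. The 100 regions called higher in MOLM13 and the 219 called higher in THP1 lie on the outer edges of 1 continuous cloud, and 4 THP1 regions stand apart at the upper left.

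The calls of the lines had different makeups. Of the 100 regions called higher in MOLM13, 65 carried the name of a single gene, 34 reached a log2 fold of at least 3 with a −log10 p of at least 3 in both MOLM13 lists, and 43 lay below IgG in both THP1 lists. Of the 219 called higher in THP1, 207 carried 1 name, 169 reached that level in both THP1 lists, and 55 lay below IgG in both MOLM13 lists. Over all regions, 5.75% reached it in both MOLM13 lists and 12.4% in both THP1 lists. Of all 44174 regions, 18017 carried 1 name, 3987 lay below IgG in both THP1 lists and 3672 in both MOLM13 lists. A name needs a peak over input in at least 1 of the 4 input tables, and the THP1 tables are longer, so a region enriched in THP1 had more chance of being named. The series holds 2 input libraries for MOLM13 and 1 for THP1, so the 2 THP1 input tables cannot rest on separate input libraries.

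Among the regions higher in MOLM13, the largest named difference lay in an intron of NCALD, which encodes a neuronal calcium sensor (chr8:102036256-102036303, minus strand). Its centred folds were 3.49 and 5.09 in MOLM13, against −1.74 and −1.26 in THP1, a difference of 5.79 ± 0.75 (SE, limma adjusted p = 0.000893). Both MOLM13 values stood well above the THP1 values, which were below the median of their lists. All 3 shared regions of NCALD were called higher in MOLM13, with differences of 3.78 to 5.79. EFNA5, an ephrin ligand of Eph receptors, behaved alike, with 3 of its 3 regions called and differences of 4.31 to 5.52. At the largest of them (chr5:107556721-107556748, minus strand, intron) the folds were 3.47 and 4.58 in MOLM13, against −2.32 and −0.68 in THP1. Another lay in its 5' UTR, at 4.09 and 5.53 in MOLM13, against −0.89 and 0.91 in THP1.

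The 3' UTR regions higher in MOLM13 were led by PTPN3, a protein tyrosine phosphatase (chr9:109378917-109378937, minus strand). It reached 6.48 and 7.90 in MOLM13, against 1.14 and 2.00 in THP1, a difference of 5.62 ± 0.75 (SE, limma adjusted p = 0.00114). This region was above the median of all 4 lists, with the MOLM13 values higher. BCL7A, a subunit of the SWI/SNF chromatin remodelling complex, was called in 2 of its 2 regions, with 5.17 and 5.60 in MOLM13 against 0.77 and −0.42 in THP1 at the larger one (chr12:122061967-122062005, plus strand). The difference there was 5.21 ± 0.73 (SE, limma adjusted p = 0.00167). INHBA, the βA subunit of activin, had 3.59 and 5.96 in MOLM13, against −0.74 and 0.32 in THP1 (chr7:41685345-41685351, minus strand, 7 shared bases). In all 3 genes the peak over input was listed in both MOLM13 tables and in neither THP1 table for the region named here.

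A further 5 genes completed the 8 with the largest 3' UTR differences in this direction, counting 1 region per gene. They belonged to FBXO46, an F-box protein of ubiquitin ligases (4.27), ITPR3, an IP3 receptor that releases calcium from the endoplasmic reticulum (3.86), SAMSN1, an adaptor of blood cells (3.67), PTGER2, a receptor of prostaglandin E2 (3.66), and METTL9, a histidine methyltransferase (3.54). ITPR3 had 5.01 and 5.27 in MOLM13, against 0.62 and 1.95 in THP1, and PTGER2 had 4.03 and 3.73 in MOLM13, against 0.85 and −0.42 in THP1. In each of the 5 the groups did not overlap, which the choice of regions required. The limma calls at METTL9 and SAMSN1 were lost without centring, with adjusted p of 0.0646 and 0.0514, and that at METTL9 also under quantile normalization, with 0.0714.

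Outside 3' UTRs, coding regions of SLC27A2, a fatty acid transporter and acyl-CoA synthetase, and of PRELID1, a mitochondrial lipid transfer protein, were called higher in MOLM13. SLC27A2 had 4.22 and 4.36 in MOLM13, against 0.00 and 0.32 in THP1, and PRELID1 had 4.20 and 4.64 in MOLM13, against 0.68 and 0.32 in THP1. Their differences were 4.13 and 3.92. Introns of AC103796.1, RFTN1, a lipid raft protein, and STARD9, a kinesin, had differences of 4.07, 3.98 and 3.97.

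The regions higher in THP1 included larger differences, and the largest lay in introns. In NAV3, a microtubule-associated protein, an intronic region (chr12:78140918-78140930, plus strand) had −4.39 and −4.84 in MOLM13, against 3.66 and 6.63 in THP1, a difference of −9.76 ± 0.85 (SE, limma adjusted p = 3.55e-06). It was thus far below the median of both MOLM13 lists and far above it in both THP1 lists. FAM135B had −2.85 and −4.54 in MOLM13, against 4.69 and 6.90 in THP1, a difference of −9.49. ZNF254, a zinc finger protein, had −3.32 and −4.12 in MOLM13, against 4.72 and 5.35 in THP1, a difference of −8.75. At all 3 regions the folds fell below IgG in both MOLM13 lists, and peaks over input were listed in both THP1 tables and in neither MOLM13 table.

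Introns also gave most of the next differences. NXN, a redox protein of Wnt signalling, differed by −6.32, and the transcription factor FOXP2 by −5.93, with −1.13 and −1.37 in MOLM13 against 4.60 and 4.75 in THP1. The noncoding transcript AL603839.3 differed by −5.89. XACT, a long noncoding RNA known for coating the active X chromosome in human pluripotent cells, had −0.74 in both MOLM13 lists, against 4.32 and 5.71 in THP1, a difference of −5.75. DZIP1L, a ciliary protein, NEDD4L, a ubiquitin ligase of ion channels, ZNF721, a zinc finger protein, and MAML2, a coactivator of Notch, differed by −5.66, −5.59, −5.35 and −5.25. In all of these the 4 values split by line without overlap, which the choice of regions required.

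**Figure D2:**
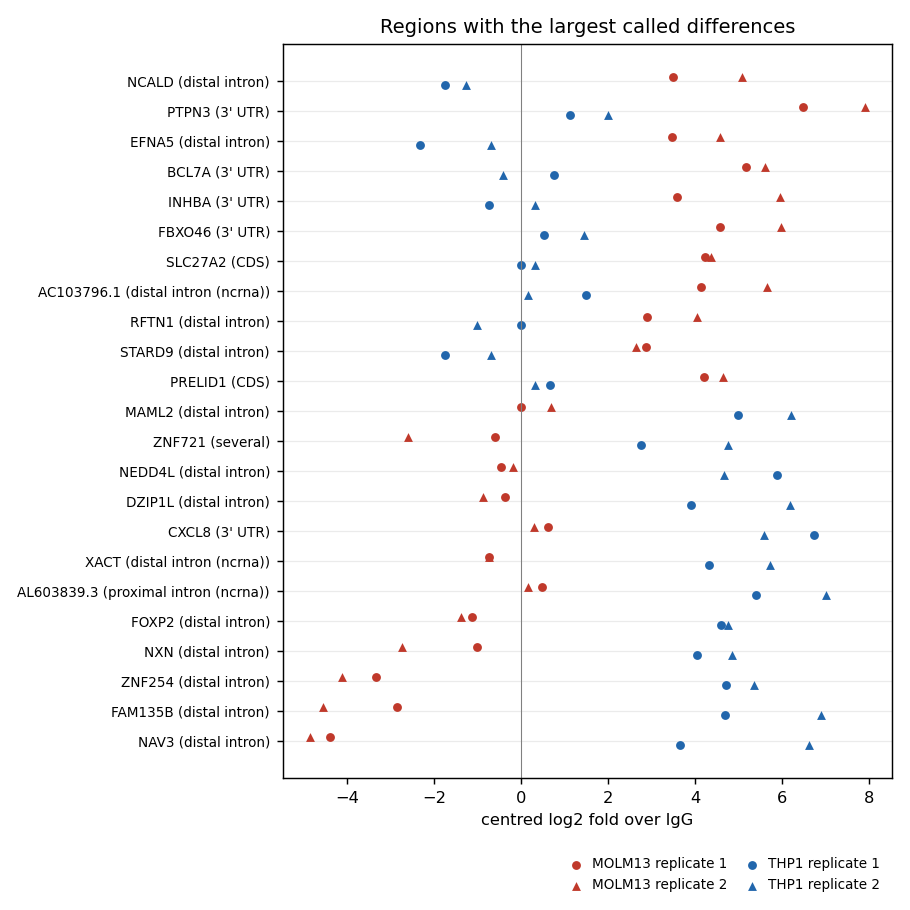
Centred log2 fold over IgG (horizontal axis) in the 2 MOLM13 lists (red) and the 2 THP1 lists (blue) for the named regions with the largest called differences, 1 region per gene, with its annotation in brackets. The upper 11 are higher in MOLM13, the lower 12 are higher in THP1, and several of the lowest rows have MOLM13 values far below 0.

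The cytokine mRNAs CXCL8 and IL1B, known for AU-rich 3' UTRs, led the 3' UTR regions higher in THP1. CXCL8, a neutrophil chemokine (chr4:73743090-73743127, plus strand), had 0.62 and 0.30 in MOLM13, against 6.72 and 5.59 in THP1, a difference of −5.69 ± 0.72 (SE, limma adjusted p = 0.00082). IL1B, the pro-inflammatory cytokine interleukin 1β (chr2:112829971-112830003, minus strand), had 0.29 and 1.36 in MOLM13, against 5.42 and 6.56 in THP1, a difference of −5.17 ± 0.74 (SE, limma adjusted p = 0.00224). The MOLM13 values of both were close to the list median, yet a peak over input was listed in all 4 tables. The log2 folds over input at CXCL8, in the authors' tables, were 4.89 and 5.15 for the MOLM13 immunoprecipitates, against 7.97 and 7.43 for those of THP1. At IL1B they were 4.14 and 4.11 for MOLM13, against 9.25 and 7.94 for THP1. The monocyte chemokine CCL2 was called as well, with 0.00 in both MOLM13 lists, against 3.20 and 2.91 in THP1 (limma adjusted p = 0.0469). Its −log10 p over IgG was 2.53 and 2.54 in THP1, under the 3 required here for enrichment. After quantile normalization 3 regions in 3' UTRs were called higher in THP1, and CCL2 was not among them.

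With 1 region counted per gene, the other genes among the 8 with the largest 3' UTR differences toward THP1 were RGS18, a regulator of G-protein signalling in blood cells (−4.01), CDYL2, a chromodomain protein (−3.77), SLC12A2, a sodium, potassium and chloride cotransporter (−3.72), SPRY4, a feedback inhibitor of MAP kinase signalling (−3.61), UHMK1, a kinase (−3.52), and ONECUT2, a transcription factor (−3.50). RGS18 had 0.00 and 0.58 in MOLM13, against 3.81 and 4.81 in THP1. SPRY4 had 1.50 and 1.46 in MOLM13, against 5.25 and 4.93 in THP1. Under quantile normalization the calls at CDYL2, SLC12A2, SPRY4, UHMK1 and ONECUT2 were lost, with limma adjusted p of 0.0517 to 0.0743, and that at ONECUT2 also when overlapping clusters were averaged, with 0.0601.

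Several genes were called at more than 1 region. Outside the Y chromosome and X-inactivation transcripts, 217 genes had a called region and 29 had at least 2. Of these 29, 5 were higher in MOLM13 and 24 higher in THP1, and 0 had calls in both directions. PDE4D, a cAMP phosphodiesterase, had 8 of its 17 regions called higher in THP1, with differences of −4.57 to −3.25, all in distal introns. At the largest, its folds were 1.35 and −0.78 in MOLM13, against 4.40 and 5.32 in THP1. XACT had 7 of 9 regions called, LYST, a regulator of lysosomes, 5 of 23, and ADGRL3, an adhesion receptor, and ST6GALNAC3, a sialyltransferase, 4 of 6 each. Regions of 1 gene share its RNA and are not independent of each other.

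The difference varied with the annotation of the regions. Of 10513 regions in distal introns, 24 were called higher in MOLM13 and 150 higher in THP1, which is 0.228% and 1.43% of them. Of 3839 regions in 3' UTRs, 19 were called higher in MOLM13 and 14 higher in THP1, which is 0.495% and 0.365%. The median difference was −0.65 in distal introns, −0.46 in proximal introns and −0.52 in introns of noncoding transcripts, against 0.17 in 3' UTRs, 0.29 in coding regions and 0.61 in 5' UTRs. The sign of the 3' UTR median depended on scaling and was −0.18 without centring, whereas the gap between 3' UTRs and distal introns, which a shift of all differences cannot alter, was 0.82 and became 0.84 after quantile normalization.

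The same gap can be read within each list, where no scaling between lists enters. The median centred fold of 3' UTR regions minus that of distal intron regions was 0.56 and 0.96 in MOLM13, against 0.082 and −0.078 in THP1. Both MOLM13 lists thus placed 3' UTRs above introns, and the THP1 lists placed them about level. When only regions with a peak over input in all 4 tables were kept, no region was named from 1 line alone. The gap was then 0.65 and 1.19 in MOLM13, against 0.43 and 0.027 in THP1. Under this filter the first THP1 list also placed 3' UTRs above introns. The filter still selects on the folds of the same immunoprecipitates, so an unequal choice between the lines may remain. In those regions the median difference was 0.078 over 1219 in 3' UTRs and −0.65 over 4767 in distal introns. With 2 lists a line no exact permutation test over libraries can pass the threshold, so these gaps are a description.

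**Figure D3:**
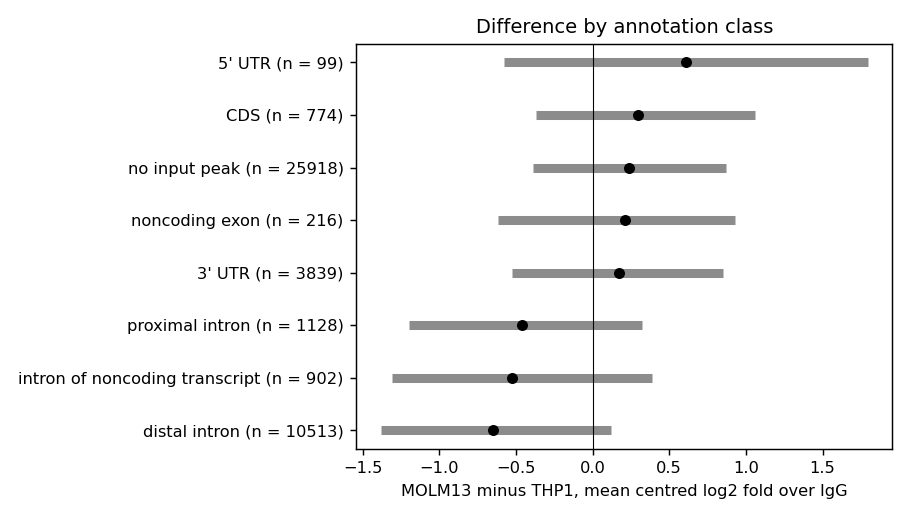
Difference of MOLM13 minus THP1 in mean centred log2 fold (horizontal axis) by annotation class of the region, with the number of regions. Points are medians and bars run between the lower and upper quartiles; the 3 intron classes have medians below 0 and the exon classes above 0, while the quartile ranges overlap.

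The regions of the TIS11 family itself lay above the median of every list, and 0 of them were called. The 13 regions lay in the 3' UTRs of ZFP36 (4), ZFP36L1 (2) and ZFP36L2 (7), with differences of −2.14 to 1.03. The strongest ZFP36 region (chr19:39409251-39409309, plus strand) had 4.95 and 7.46 in MOLM13, against 6.50 and 4.89 in THP1, so the duplicates of each line were further apart than the lines. A ZFP36L2 region (chr2:43223280-43223351, minus strand) had 4.50 and 5.18 in MOLM13, against 4.51 and 4.90 in THP1, a difference of 0.14 ± 0.71 (SE, limma adjusted p = 0.952). The most negative difference of the family was at ZFP36L1 (chr14:68788317-68788377, minus strand), with 3.42 and 1.12 in MOLM13, against 4.49 and 4.32 in THP1 (limma adjusted p = 0.188). The sign at 7 of the 13 regions turned under another scaling, after merging of clusters or with a library left out.

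**Figure D4:**
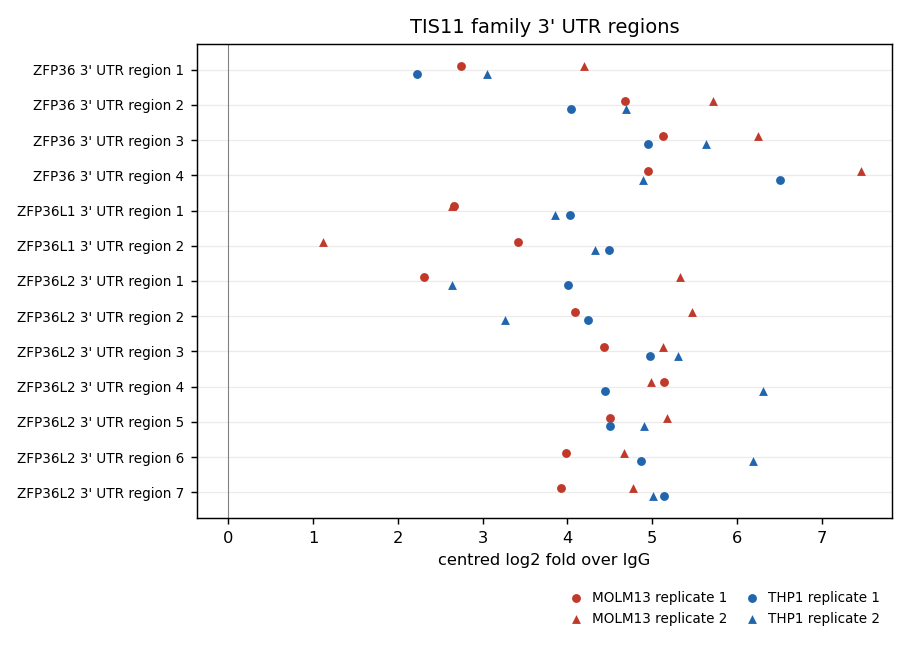
Centred log2 fold over IgG (horizontal axis) of the 13 regions in the 3' UTRs of ZFP36, ZFP36L1 and ZFP36L2, numbered along the chromosome, in the 2 MOLM13 lists (red) and the 2 THP1 lists (blue). All values lie above 0, and both THP1 values exceed both MOLM13 values at 4 of the 13.

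The regions with the highest fold in all 4 lists were chosen for being high in both lines, so their small differences follow from the choice and are given as values. A coding region of NNT, a mitochondrial transhydrogenase (chr5:43700178-43700199, plus strand), had 6.99 and 7.73 in MOLM13, against 7.22 and 7.37 in THP1. The 3' UTR of STING1, an adaptor of innate DNA sensing, had 6.36 and 7.19 in MOLM13, against 6.23 and 6.89 in THP1. The differences were 0.07 and 0.22. A further 7 genes of this kind were SERINC3, BCAT1, BMP2K, FBXO28, REEP4 and SERTAD2 in their 3' UTRs and PAN3, a deadenylase subunit, in an intron. Their differences lay between −0.68 and 0.68.

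Lists of genes from the pathways of ZFP36-family proteins were then read against 17975 regions with 1 gene name. This leaves out 42 named regions of the Y chromosome or of X-inactivation transcripts. Of these 17975, 0.345% were called higher in MOLM13 and 1.15% higher in THP1, and their median difference was −0.38. The count of each list stands beside these shares, and no difference from them was tested. Of 28 cytokine and NF-κB genes, 11 had a shared region, in 15 regions, of which 3 were called higher in THP1 (CXCL8, IL1B and CCL2) and 0 higher in MOLM13, with a median of −1.0. Of 34 reported targets of the family, 22 had a region, and 1 of their 66 regions was called higher in MOLM13 and the same 3 higher in THP1, with a median of 0.061. The one in MOLM13 was PIM1, a survival kinase, with 5.66 and 6.47 in MOLM13, against 2.15 and 3.24 in THP1, a difference of 3.37 ± 0.73 (SE, limma adjusted p = 0.0373). That call was lost without centring (adjusted p = 0.063) and when overlapping clusters were merged (adjusted p = 0.122 for their mean and 0.196 for their highest fold).

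Cell cycle and growth genes gave few calls. Of 37 cell cycle regulators, 29 had a region, and 1 of 87 regions was called higher in MOLM13, in the 3' UTR of E2F2, an S-phase transcription factor (3.0 and 4.57 in MOLM13, against 0.49 and 0.58 in THP1). That call was lost without centring and under quantile normalization (adjusted p of 0.0646 and 0.0607). Immediate early genes had 23 regions in 11 of 25 genes with 0 calls, and MYC, a growth regulator and 1 of the 2 members with the smallest p, had 3.08 and 4.82 in MOLM13, against 1.64 and 1.46 in THP1 (limma adjusted p = 0.124). Signalling feedback genes had 1 call in each direction among 50 regions, PIM1 and SPRY4. Among 69 regions of apoptosis regulators, 1 was called higher in THP1, in an intron of APAF1, the apoptosome scaffold, with 1.93 and 2.30 in MOLM13, against 5.51 and 6.36 in THP1.

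Regulators of mRNA decay showed clusters on their own RNAs in both lines. Of 44 decay genes, 34 had a region, and 0 of their 167 regions were called, with a median of −0.32 and the extremes at an intron of AGO3 (−2.66) and an intron of CNOT6L, a deadenylase (3.0). Of 32 other regulators of AU-rich mRNAs, 21 had a region, and 3 of 101 regions were called higher in THP1 and 0 higher in MOLM13, with a median of −0.56. Among them were introns of HNRNPD, which encodes AUF1, and of PUM2, an RNA-binding repressor of translation. HNRNPD had 1.91 and 2.52 in MOLM13, against 4.79 and 6.17 in THP1, and PUM2 had 0.22 and −0.86 in MOLM13, against 3.19 and 2.52 in THP1. HNRNPD no longer passed under quantile normalization, with an adjusted p of 0.0786, nor when overlapping clusters were merged, with 0.0744 for their mean and 0.0664 for their highest fold.

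Of 34 monocyte and macrophage genes, 12 had a region, and 1 of 21 was called, higher in THP1, in the 3' UTR of CST3, which encodes the protease inhibitor cystatin C (0.74 and −0.13 in MOLM13, against 3.98 and 3.04 in THP1). That call was lost under quantile normalization (adjusted p = 0.083) and when overlapping clusters were averaged (adjusted p = 0.0508). The list's median was −1.25. Of 28 HOXA and stemness genes, 19 had a region, and 1 of 122 was called higher in THP1, in the 3' UTR of HOXA13, a call lost under quantile normalization (adjusted p = 0.0715). MLLT3, the partner of the KMT2A fusion in both lines, had 3.12 and 3.73 in MOLM13, against 0.00 and 0.81 in THP1, and did not pass (limma adjusted p = 0.0538). Among 57 regions of myeloid transcription factors, 72 of hypoxia and metabolism genes and 14 of ribosomal protein genes, 0 were called. Of 129 regions of nuclear long noncoding RNAs, 1 was called higher in MOLM13, at SNHG14, with 2.42 and 4.61 in MOLM13, against −0.21 and 0.00 in THP1, and it was lost under quantile normalization (adjusted p = 0.0561).

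Of the markers of other blood lineages, 0 of 5 lymphoid and 0 of 5 erythroid and megakaryocytic genes had a shared region, and CD33 and CD68 were the 2 of 8 monocytic markers with one, neither of them called. In the longer lists, 0 of 16 lymphoid genes had a region, and 2 of 15 erythroid and megakaryocytic genes, EPOR and TFRC, had 8 regions, of which 0 were called and 2 had both THP1 values above both MOLM13 values. A cluster is not an expression level, so these counts are a limited check of the labelled cell type.

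Regions at gene 5' ends formed a group with a common shift, chosen after its values were seen and therefore given without a test. The 287 regions that overlapped the first 50 bases of a RefSeq gene on its strand had a median difference of 0.92, against 0.013 in the other 43887. Of these 287, 89.5% lay above 0, 5 were called higher in MOLM13, which is 1.74%, against 0.216% of the others, and 0 were called higher in THP1, against 219 of the others. Both MOLM13 values exceeded both THP1 values in 61.0% of them, against 22.8% of the others. They were depleted more often than enriched, since the median log2 fold over IgG, before centring, was −0.49 and −1.01 in MOLM13 and −1.66 and −1.45 in THP1. The gap of 0.90 to the other regions cannot change with centring, and it was 0.38 after quantile normalization. The other regions lay higher, with median centred folds of 1.22 and 1.60 in MOLM13 and 1.49 and 1.46 in THP1. Over all regions the centred folds also spread more in THP1 (SD 1.66 and 1.77) than in MOLM13 (1.43 and 1.48). Other regions with folds as low were not compared, so the shift cannot be called particular to 5' ends.

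At UNC50, whose letters are printed above, the folds were 0.94 and −0.54 in MOLM13, against −3.39 and −3.54 in THP1, a difference of 3.67 ± 0.74 (SE, limma adjusted p = 0.0273). ZNF740 had −0.32 and 0.58 in MOLM13, against −3.32 and −3.50 in THP1, and MORF4L1, a chromatin protein, had 0.47 and −0.47 in MOLM13, against −3.12 and −3.40 in THP1. DPM3, a subunit of dolichol-phosphate mannose synthase, and RAB4B, an endosomal GTPase, were the other calls. At RAB4B the MOLM13 folds were 1.22 in both lists, above IgG, against −1.51 and −2.36 in THP1. In the other 4 the MOLM13 values were within 1 of the median of their lists, and in all 5 the THP1 values were well below it. Of the 287 regions, 267 had no peak over input in any table.

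**Figure D5:**
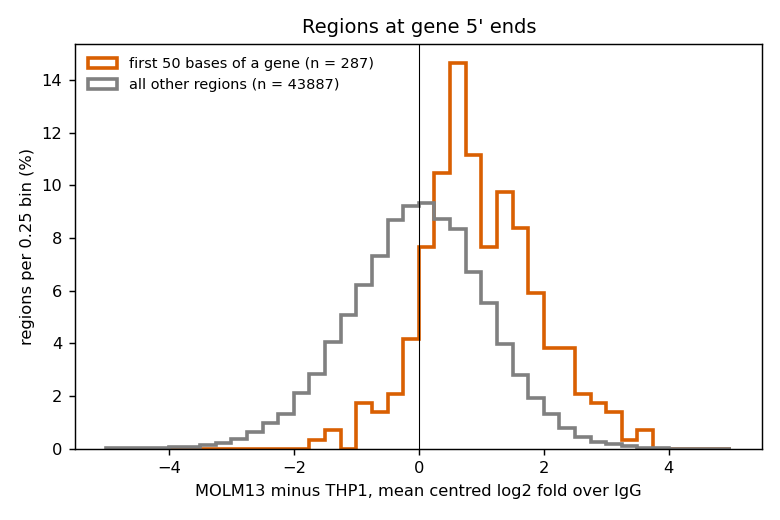
Share of regions (vertical axis, percent per bin of 0.25) by the difference of MOLM13 minus THP1 in mean centred log2 fold (horizontal axis), for the 287 regions at gene 5' ends and the 43887 others, drawn between −5 and 5. The 5'-end curve is shifted to the right, with a median of 0.92 against 0.013.

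Many folds in the lists lay on discrete steps. Within the regions, 56.0% and 62.6% of the MOLM13 folds and 66.0% and 68.9% of the THP1 folds were whole multiples of 1 step per list, and the list medians lay at 3 and 4 steps in MOLM13 and at 5 and 4 in THP1. A log2 fold of 3 corresponded to 19.7 and 48.5 steps in MOLM13 and 39.9 and 24.7 in THP1, so the same fold stands for different step counts in different lists. All 4 values lay on such steps in 29.1% of all regions, in 21 of the 100 regions called higher in MOLM13 and in 24 of the 219 called higher in THP1. The sources used here do not say whether a step is 1 read, and the part of these steps in the differences was not tested.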

How the data were processed

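eCLIP of ZFP36L2 and IgG in MOLM13 and THP1 was deposited as 4 lists of clusters and 4 input tables. The submitters' processing notes name edgeR, Picard 2.6.0, STAR 2.5.0c and cutadapt 1.14, and as builds GRCh37, hg19 and hg38, with no role for any. All lists carry hg38 contig names. The authors deposited, per cluster, a −log10 p and a log2 fold of immunoprecipitate over IgG. The −log10 p was 0 below the control and also at some clusters above it, and at most 400. Clusters were listed per immunoprecipitate and not pooled. The sources used here do not give the peak caller, the scaling of the fold or the read depth. The authors' input tables, also deposited, add gene and feature to the log2 fold over input and its −log10 p, neither of which is under 3 anywhere.

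A region is the stretch common to 1 cluster of each list, and each cluster was used once. Each list was centred on its median over all clusters. limma 3.58.1 (R 4.3.3, lmFit and eBayes) compared 2 MOLM13 with 2 THP1 lists without covariates. The analysis was tested on simulated data of continuous, independent values. The simulation held no discrete steps and no tie between variance and mean, so it does not cover these traits of the real folds. Names came from input-table rows overlapping on the same strand; 18017 regions had 1 name, 232 several and 25925 none, and of 6119 names 5616 matched a RefSeq symbol, 167 an older one and 336 neither. Lists were tied to input tables by identical cluster coordinates (99.8% to 99.9% of rows). Enrichment required 3 or more in both log2 fold and −log10 p. A fold was on a step when within 0.0001 of a whole multiple.

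The members and gene lists were chosen with earlier results of these data known. Named were all regions of the TIS11 family, the 12 genes per direction with the largest called differences without overlap, the same for 8 genes among 3' UTRs, the 10 genes highest in all 4 lists and the 2 members per gene list with the smallest p; a few of these are not reported here. Genes with several calls and regions at 5' ends were chosen after their values were seen. Same-numbered immunoprecipitates did not deviate together (r = −0.033 over regions), so no sign of pairing by number was seen. The correlation cannot decide whether they shared a batch, since centring removes a shift common to a whole list. Alternatives covered centring, normalization, region building, filters, the variance model, a replicate block and each library left out.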

Additional observations from a re-analysis of the deposited data

How the results depend on the processing

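The counts of called regions depended on most settings, and each pair below gives the regions higher in MOLM13 first and those higher in THP1 second, against 100 and 219. Centring on the shared regions gave 261 and 319, no centring 35 and 314, quantile normalization 38 and 90, merging overlapping clusters 152 and 240 (mean fold) or 161 and 276 (highest fold), a −log10 p of at least 3 in 1 list 142 and 522 of 12985 regions, enrichment in both lists of 1 line 119 and 650 of 6289, and a variance trend with robust eBayes 350 and 343. Requiring 10 shared bases left 106 and 227 of 42649 regions. Keeping only the 4490 regions with no fold on a whole step, chosen after seeing the data, gave 351 and 209. With the replicate block the counts were 58 and 147, and of the named calls E2F2, CST3, HNRNPD and HOXA13 no longer passed. The labels do not say whether the numbers pair the samples. Leaving out any 1 immunoprecipitate gave 0 in both directions (limma, smallest adjusted p 0.36 to 0.677), where 1 residual degree of freedom is left and the lone library is assumed to vary like the pair of the other line.

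For 3' UTR regions the counts were 19 and 14. They were 43 and 21 when centred on the shared regions, 7 and 22 without centring, 11 and 3 after quantile normalization, 24 and 12 or 29 and 18 after merging, 45 and 34 with the filter on −log10 p, 49 and 47 with the enrichment filter, 41 and 20 with the variance trend, 13 and 9 with the replicate block, and 19 and 6 without whole steps. Leaving out a library gave 0 each. The cause of these changes was not tested.

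All called regions that an alternative tested on the same regions kept their sign, which was largely fixed in advance. Filters, the variance model and the replicate block leave each difference as it was. Leaving out the centring shifts all differences by −0.35, and the smallest called difference was 3.01 in size. A library left out cannot turn a sign where the lines do not overlap. Among the named regions, directions turned only at regions that did not pass. Without centring, ZFP36L2 at chr2:43223280-43223351 had −0.21, NNT −0.28 and STING1 −0.12. After quantile normalization FBXO28 had 0.03, ZFP36L2 at chr2:43223232-43223251 had 0.042 and at chr2:43223255-43223265 had 0.12. Merging joined ZFP36L2 at chr2:43223148-43223172 with chr2:43223280-43223351, at −0.27 (mean) and −1.07 (highest). With each library left out in turn, the differences ranged from −0.17 to 0.95 and from −0.75 to 1.76 at ZFP36, from −1.02 to 2.00, −1.25 to 0.61 and −0.20 to 0.48 at ZFP36L2, from −1.13 to 0.44 at SERINC3, −0.11 to 1.00 at BMP2K, −0.30 to 0.44 at NNT, −0.19 to 0.64 at STING1 and −0.14 to 1.00 at REEP4. The read depth is unknown, and 2 libraries a line limit the precision.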

Other observations

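Among chromosomes 1 to 22 and X, which hold all but 165 regions and all but 3 of the calls, the median difference varied, given here as values. It was highest on chromosome 13, at 0.46 over 1084 regions, followed by chromosome 19 at 0.37, chromosome 8 at 0.27 and chromosome 6 at 0.24, and lowest on chromosome 1, at −0.20 over 4471 regions. Chromosome 1 held 5 calls higher in MOLM13 and 37 higher in THP1, and chromosome 13 held 4 and 0.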
